A study of Mus musculus with 5 samples.

Results

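The enzymes that carry one-carbon units on folate, regenerate methionine and spend methyl groups form a set of 37 genes, listed by symbol. The array named 12393 genes, and 29 of the 37 had a probe set annotated to that gene alone. Where a gene had several, the one brightest on average, as log2(signal + 16) over the 5 arrays, stood for it, and 20 of the 29 were bright enough to be tested. No probe set under their own symbol was listed for Mthfd1l, Mthfd2l, Amt, Mtr, Mat2a and Amd1. Those of Mthfs and Sms were shared with another symbol, Mthfsl and the pseudogene Sms-ps, so neither gene is given a value.

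RNA of whole C57BL6J mouse embryos, taken at gestation day 9.5 and amplified in 2 rounds, was measured on 1 Affymetrix array per sample. The Folr1-/- group had 2 arrays and the Folr1+/+ group 3. Folr1-/- embryos came from crosses of Folr1+/- mice, in which the dams were fed extra folate before mating and through gestation. The diet of the Folr1+/+ litters is not stated separately, so genotype and diet cannot be told apart if it differed. Embryos were dissected from decidua, chorion and amnion, the yolk sac is not mentioned, and the number of embryos behind an array is not given. No detail of the targeted allele is given, and the p-values measure the spread between these arrays.

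Folate carries single carbons that serine and glycine supply, in the cytosol and in mitochondria. The carbons go into purines and thymidylate, or turn homocysteine back into methionine. Methionine becomes S-adenosylmethionine, the methyl donor for DNA, proteins and small molecules, and its decarboxylated form feeds polyamine synthesis. In the mouse embryo this metabolism is known for its part in closing the neural tube, and loss of the folate receptor gene Folr1 without folate supplements is lethal before birth.

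The Folr1 probe set itself did not separate the groups, with signals of 50.2 and 41.8 on the Folr1-/- arrays and 57.0, 50.01 and 40.2 on the Folr1+/+ arrays (log2 fold change -0.07 ± 0.20, SE, adjusted p = 0.858), so the arrays are called by their labels. Correlations of log2 signals over genes were 0.980 between the Folr1-/- arrays, 0.926 to 0.949 between groups and 0.971 to 0.982 within the Folr1+/+ group. Xist signals were 419 and 770 on the Folr1-/- arrays and 24.95 to 35.7 on the Folr1+/+ arrays, and those of the Y-linked Eif2s3y were 104 and 3.13 against 300.3 to 372. The Y-linked Kdm5d had 25.2 and 0.796 against 89.5 to 120, so Folr1-/- replicate 1 carried Xist and Y-linked signal together. Sex-linked signal thus differed between the groups, so sex and genotype cannot be told apart on these arrays. All 20 tested members are autosomal, but the part of sex in their values was not tested. Markers of heart, neural tissue, somites and primitive blood all had tested members on the arrays. All 12 tested markers of visceral endoderm and early liver rose, with summed signals of 16672 and 16909 on the Folr1-/- arrays and 2431 to 3420 on the Folr1+/+ arrays. Of 6 listed markers of trophoblast and decidua 2 were tested, Plac1 and Prl8a2, and both rose. Prl8a2 had uneven Folr1-/- signals of 143 and 34.6. Its Folr1+/+ mean log2 signal of 5.05 lay under the lowest mean tested, 5.524, so only its Folr1-/- arrays brought it into the test. Tpbpa and Ascl2 were too dim for a test, and their groups overlapped. Of primitive erythroid markers 6 of 7 fell, of neural progenitor markers 6 of 7, of neural crest markers 3 of 4, of somite markers 4 of 4 and of heart markers 5 of 8. Beside these counts, 8.19% of all 7436 genes tested rose and 6.79% fell at a limma adjusted p under 0.05.

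Among the 20 tested members, Gldc, the glycine decarboxylase of the glycine cleavage system, rose and Dnmt1, the maintenance DNA methyltransferase, fell at a limma adjusted p under 0.05. The call of Dnmt1 was lost in 8 of 18 other settings, and its second probe set gave a log2 fold change of -0.08 (adjusted p = 0.770). The calls are 2 of 20, where 15.0% of all 7436 genes tested passed (8.19% higher and 6.79% lower). The median log2 fold change of the 20 was -0.06, with quartiles of -0.19 and 0.12, and that of all genes was -0.02, with quartiles of -0.27 and 0.25. The signals of the groups did not overlap for 9 of the 20, beside 46.7% of all genes. In 5 both Folr1-/- signals were on top, beside 22.5% of all genes, and in 4 both were below, beside 24.2%. An unadjusted p under 0.05 was reached by 7 of the 20, beside 30.0% of all genes. In whole embryos, fewer cells of a type and less RNA per cell cannot be told apart.

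**Figure D1:**
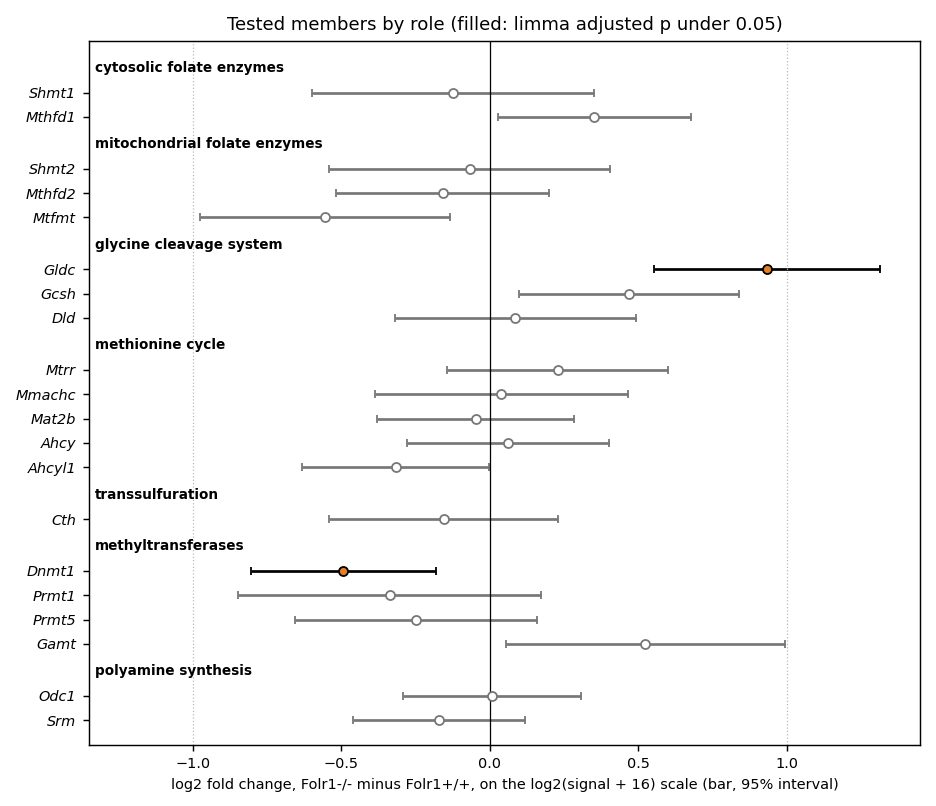
Log2 fold change of the 20 tested members on the log2(signal + 16) scale, Folr1-/- minus Folr1+/+, with 95% intervals, grouped by role. Filled points passed the adjusted threshold: Gldc at 0.93 and Dnmt1 at -0.49. The intervals of the other 18 all lie between -1 and 1.

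The 18 members that did not pass are bounded by their 95% intervals, taken gene by gene. All 18 intervals lay between -1 and 1 on the log2 scale, and those of Gamt (upper end 0.99) and Mtfmt (lower end -0.97) came nearest to these limits. For Dld, Mmachc, Mat2b, Ahcy, Odc1 and Srm the interval of the probe set used lay within -0.5 and 0.5. A dimmer probe set of Odc1 reached down to -0.61 when fitted on its own. Differences inside an interval are not settled by these arrays. The standard errors ran from 0.13 to 0.23.

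The cytosolic folate enzymes gave 2 tested members, and neither passed, where 15.0% of all genes did. No role had more than 5 tested members, so counts of 0 or 1 call do not tell the roles apart. Mthfd1, whose protein interconverts the formyl, methenyl and methylene forms of folate, had signals of 1809 and 1534 on the Folr1-/- arrays, against 1417, 1182 and 1316 on the Folr1+/+ arrays. Both Folr1-/- signals lay above all Folr1+/+ signals, but the log2 fold change of 0.35 ± 0.15 (SE) had an adjusted p of 0.134. Shmt1, the cytosolic serine hydroxymethyltransferase that moves a carbon from serine to folate, had 292 and 262 in Folr1-/- embryos and 414, 226 and 297 in Folr1+/+ embryos. The groups overlapped, with a log2 fold change of -0.12 ± 0.22 and a 95% interval of -0.60 to 0.35.

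Among mitochondrial folate enzymes 0 of 3 tested members passed, beside 15.0% of all genes. Shmt2, the mitochondrial serine hydroxymethyltransferase, had signals of 308 and 462 in Folr1-/- embryos and 514, 325 and 372 in Folr1+/+ embryos (-0.07 ± 0.22). Mthfd2, the mitochondrial dehydrogenase and cyclohydrolase that is high in embryos and dividing cells, had 550 and 467 in Folr1-/- embryos and 548, 503 and 660 in Folr1+/+ embryos (-0.16 ± 0.16). Both genes thus overlapped between the groups. Mtfmt, which formylates the initiator methionyl-tRNA of mitochondrial translation, stood apart from them, with signals of 42.6 and 33.6 in Folr1-/- embryos, against 65.0, 65.8 and 58.9 in Folr1+/+ embryos. Its log2 fold change of -0.55 ± 0.19 had a limma adjusted p of 0.0751, and passed with no intensity trend in the fit (0.0487) and with the mean of probe sets (0.0474). Mtfmt had 1 probe set, so in both settings the fold change stayed at -0.55 and only the adjusted p changed.

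The glycine cleavage system splits glycine in mitochondria and hands its carbon to folate. Of its 3 tested members 1 rose, beside 8.19% of all genes. Gldc, the decarboxylase that starts the reaction, had signals of 319 and 348 in Folr1-/- embryos, against 191, 139 and 175 in Folr1+/+ embryos. Its mean was 334 ± 20.3 (SD, n = 2) in Folr1-/- embryos and 168 ± 26.7 (SD, n = 3) in Folr1+/+ embryos, and every Folr1-/- signal lay above every Folr1+/+ signal. The log2 fold change of 0.93 ± 0.17 (SE, 95% interval 0.55 to 1.31) had a limma adjusted p of 0.0040. Loss of Gldc is known to cause neural tube defects in mice. Gcsh, the lipoyl carrier protein of the complex, had 2199 and 2911 in Folr1-/- embryos and 2118, 1797 and 1594 in Folr1+/+ embryos. Here too both Folr1-/- signals lay above the others, narrowly for replicate 1, and the fold change of 0.47 ± 0.17 did not pass (adjusted p = 0.086), except with each array centred on its median (0.56, adjusted p = 0.0474) or with array weights (0.52, adjusted p = 0.0449). Dld, the lipoamide dehydrogenase shared with other mitochondrial complexes, had 148 and 169 against 181, 142 and 127, with overlapping groups and a fold change of 0.09 ± 0.19 that turned to -0.015 without Folr1+/+ replicate 3. The call of Gldc held under all 18 other settings, with fold changes of 0.78 to 1.025 and adjusted p values of 0.0023 to 0.046. Its fold change stayed at 0.93 under the filters, the probe set rules, no intensity trend and omission of sex-linked genes. For a single autosomal probe set these settings could change only the adjusted p. Markers of visceral endoderm and early liver rose on the same arrays in all 12 tested cases, by 1.097 to 3.18 on the log2 scale. Their part in the value of Gldc was not tested.

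The promoter windows of Gldc and Gcsh are shown because their proteins act in 1 complex and their Folr1-/- signals lay above all Folr1+/+ signals. The same order of signals held for 22.5% of all genes tested and, among the members, also for Mthfd1, Mtrr and Gamt. Gcsh did not pass (limma adjusted p = 0.086), and Dld of the same complex overlapped between the groups. Each is the 250 bases before the start of the gene, 5′ to 3′ on the gene's strand, from RefSeq on GRCm38.p6. Capitals mark CCAAT, the box bound by NF-Y, and GGGCGG, the GC box bound by Sp1 family factors, on either strand, where the opposite strand reads ATTGG and CCGCCC.
Gldc, chr19:30175442-30175691, minus strand: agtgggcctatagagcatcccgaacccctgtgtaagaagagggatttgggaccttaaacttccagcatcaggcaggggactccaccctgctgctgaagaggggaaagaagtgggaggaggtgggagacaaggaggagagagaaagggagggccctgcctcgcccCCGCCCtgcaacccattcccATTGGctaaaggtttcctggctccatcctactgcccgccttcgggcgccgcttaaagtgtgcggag
Gcsh, chr8:116993499-116993748, minus strand: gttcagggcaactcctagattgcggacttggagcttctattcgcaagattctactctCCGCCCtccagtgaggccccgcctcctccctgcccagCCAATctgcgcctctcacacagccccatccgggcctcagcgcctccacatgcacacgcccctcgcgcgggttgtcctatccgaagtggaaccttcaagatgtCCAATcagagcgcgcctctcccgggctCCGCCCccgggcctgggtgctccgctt
Gldc held 1 match of each motif and Gcsh 2 of each, with no overlap between motifs. Of all 32851 promoter windows of this length, 33.8% held CCAAT, 32.7% GGGCGG and 11% both. The GC content was 59.6% with 8 CpG pairs for Gldc and 64.4% with 18 for Gcsh. A match describes these letters and says nothing about binding.

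**Figure D2:**
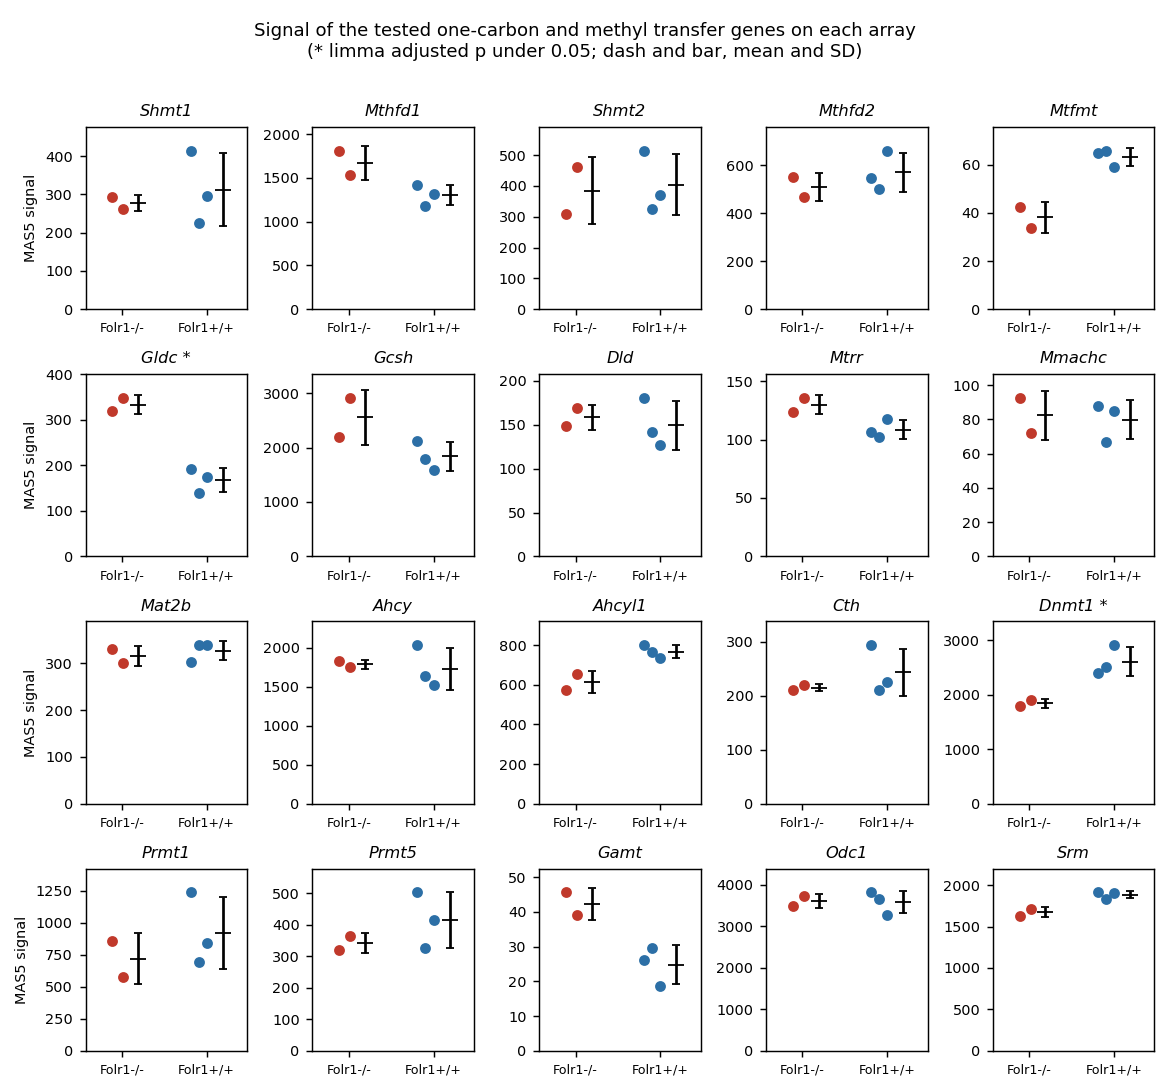
MAS5 signal of each tested member on each array, with the Folr1-/- arrays in red and the Folr1+/+ arrays in blue, and the mean and SD beside them. Each panel has its own axis from 0. For Gldc the Folr1-/- points at 319 and 348 clear the Folr1+/+ points, and for Dnmt1 those at 1786 and 1896 lie below them.

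The methionine cycle gave 0 calls among 5 tested members, beside 15.0% of all genes, with a median log2 fold change of 0.04. Ahcy, which hydrolyses S-adenosylhomocysteine, the product that inhibits methyltransferases, had signals of 1829 and 1746 in Folr1-/- embryos and 2030, 1633 and 1516 in Folr1+/+ embryos. The groups overlapped and the 95% interval of the fold change, -0.28 to 0.40, was among the narrow ones. Mat2b, the regulatory subunit of methionine adenosyltransferase, gave 331 and 301 against 304, 339 and 338 (-0.05 ± 0.15), again with overlapping groups.

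Methionine synthase, Mtr, had no listed probe set, but 2 genes that serve its cobalamin cofactor were tested. Mtrr, the reductase that reactivates the enzyme, had 124 and 136 in Folr1-/- embryos and 106, 102 and 117 in Folr1+/+ embryos, so that the groups did not overlap, yet the fold change was only 0.23 ± 0.17 (adjusted p = 0.40). Mmachc, which processes cobalamin after uptake, had 92.5 and 72.2 against 87.7, 66.7 and 84.7, with overlapping groups (0.04 ± 0.20). Ahcyl1, a relative of Ahcy better known as a regulator of the inositol trisphosphate receptor, had 574 and 655 in Folr1-/- embryos, against 801, 769 and 735 in Folr1+/+ embryos. Both Folr1-/- signals lay below the others, and its fold change of -0.32 ± 0.14 did not pass (adjusted p = 0.164). Cth, the transsulfuration enzyme that yields cysteine, had 209.5 and 219 in Folr1-/- embryos and 293, 210.2 and 225 in Folr1+/+ embryos (-0.16 ± 0.18), and its groups overlapped.

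Among methyltransferases 1 of 4 tested members fell, beside 6.79% of all genes, and 3 did not pass. Dnmt1, which copies DNA methylation onto new strands at replication, had signals of 1786 and 1896 in Folr1-/- embryos, against 2398, 2509 and 2909 in Folr1+/+ embryos. The means were 1841 ± 77.3 (SD, n = 2) in Folr1-/- embryos and 2605 ± 269 (SD, n = 3) in Folr1+/+ embryos, with no overlap. The log2 fold change was -0.49 ± 0.14 (95% interval -0.80 to -0.18), with a limma adjusted p of 0.0376, while the second, dimmer probe set of Dnmt1 gave -0.08 ± 0.16 (adjusted p = 0.770). Leaving out single arrays ended the call in 3 of 5 cases: Folr1-/- replicate 1 (-0.45, adjusted p = 0.203), Folr1-/- replicate 2 (-0.54, adjusted p = 0.104) or Folr1+/+ replicate 3 (-0.41, adjusted p = 0.148). With each array centred on its median the fold change of Dnmt1 was -0.40 (adjusted p = 0.0759). That scaling moved the split of all genes past the threshold to 769 higher and 341 lower, beside 609 higher and 505 lower as deposited, and left the members with 2 higher, Gldc and Gcsh, and 0 lower. Neural progenitor markers had summed signals of 323 and 339 on the Folr1-/- arrays and 1151 to 1204 on the Folr1+/+ arrays, and their part in the value of Dnmt1 was not tested.

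The arginine methyltransferases Prmt1 and Prmt5 both overlapped between the groups. Prmt1, which makes most asymmetric dimethylarginine, had 862 and 580 in Folr1-/- embryos and 1238, 694 and 841 in Folr1+/+ embryos (-0.34 ± 0.23). Prmt5, the main source of symmetric dimethylarginine, had 320 and 366 against 503, 327 and 416 (-0.25 ± 0.19). Gamt, the last enzyme of creatine synthesis and a large user of methyl groups in adult mammals, ran the other way. Its signals were 45.6 and 39.0 in Folr1-/- embryos, against 26.1, 29.6 and 18.6 in Folr1+/+ embryos, without overlap. The fold change of 0.52 ± 0.22 did not pass (limma adjusted p = 0.127). The Folr1+/+ signals were near the offset of 16, and their mean log2 signal of 5.34 lay under the lowest mean tested, 5.524. Gamt was thus tested only through its Folr1-/- arrays, with a mean of 5.86.

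Polyamine synthesis, which draws on decarboxylated S-adenosylmethionine, gave 0 calls among 2 tested members, beside 15.0% of all genes. Odc1, the ornithine decarboxylase that starts the pathway, had 3486 and 3717 in Folr1-/- embryos and 3815, 3656 and 3280 in Folr1+/+ embryos. The groups overlapped and the 95% interval was -0.29 to 0.31. Srm, the spermidine synthase, had 1630 and 1714 against 1912, 1835 and 1904, so that the groups did not overlap although the fold change was small (-0.17 ± 0.13, adjusted p = 0.422).

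Another 9 members were too dim to be tested, with signals of 1.52 to 45.7 over the arrays, where background and low expression look alike. They are Aldh1l1 and Ftcd of cytosolic folate, Dmgdh and Sardh, which demethylate dimethylglycine and sarcosine in mitochondria, Bhmt, which remethylates homocysteine with betaine, Cbs of transsulfuration, and the methyltransferases Gnmt, Pemt and Nnmt. Several of these genes are known as liver enzymes of the adult. Dmgdh had 25.8 and 16.3 in Folr1-/- embryos, against 9.65, 4.68 and 10.9 in Folr1+/+ embryos, and Bhmt had 10.7 and 5.60 against 16.3, 23.6 and 17.3. Neither pair of groups overlapped, but both lay near the offset of 16 and carry no test. Gnmt had 1.53 and 1.52 against 2.24, 19.7 and 1.54, and Nnmt 3.59 and 2.96 against 19.9, 4.61 and 3.98, and in both genes the Folr1-/- signals lay just below the lowest Folr1+/+ signal. The groups overlapped for the other 5. Aldh1l1 had 13.3 and 19.8 in Folr1-/- embryos and 12.3, 32.8 and 9.01 in Folr1+/+ embryos, and Ftcd 19.8 and 16.8 against 6.68, 24.9 and 3.99. Sardh had 23.7 and 23.6 against 18.7, 45.7 and 24.7, Cbs 16.3 and 22.7 against 22.1, 39.1 and 24.9, and Pemt 29.1 and 15.4 against 37.3, 32.0 and 27.6. With no filter on dim genes, all 29 measured members were tested and Gldc alone passed.

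**Figure D3:**
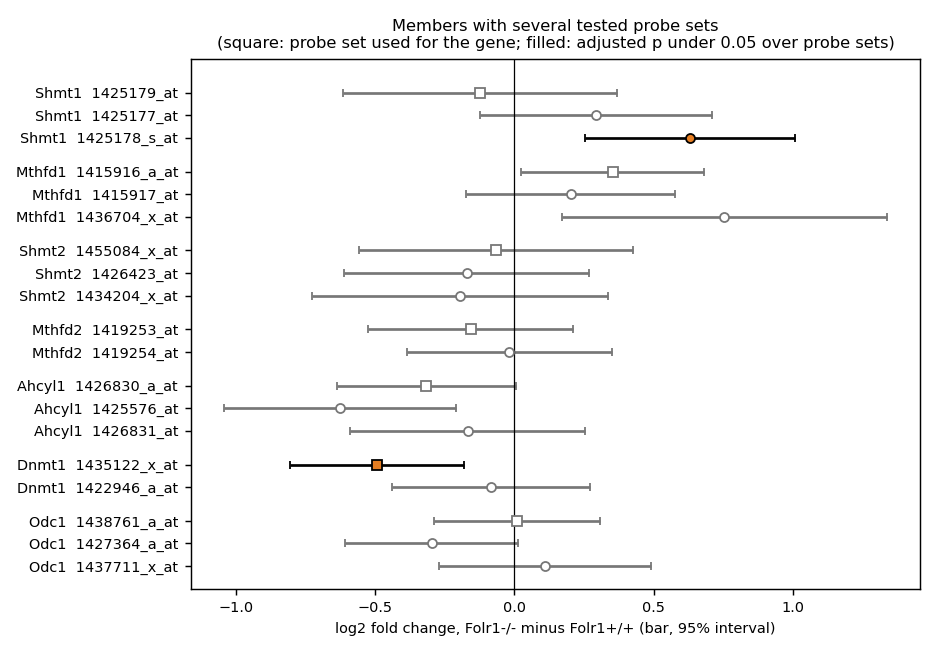
Log2 fold change of every tested probe set of the members that had several, with 95% intervals, adjusted over probe sets. Squares are the probe sets that stand for the gene. The Dnmt1 square at -0.49 and the Shmt1 circle at 0.63 are filled, and the other probe sets of both genes are not.

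Probe sets of 1 gene did not always give 1 answer. Of 46 probe sets of the members, 35 were bright enough when every probe set was fitted on its own, and 3 passed, where 11.6% of all 12228 probe sets did. They were those of Gldc, the Dnmt1 probe set above and a dimmer one of Shmt1. The Dnmt1 call came from a probe set of the class marked x, in which some probes may bind other transcripts. The other, dimmer Dnmt1 probe set had 487 and 525 in Folr1-/- embryos and 626, 495 and 501 in Folr1+/+ embryos, which overlapped (-0.08 ± 0.16, adjusted p = 0.770). The mean over both had a log2 fold change of -0.29 with an adjusted p of 0.148.

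For Shmt1, 1 of the dimmer probe sets had 146 and 153 in Folr1-/- embryos, against 95.4, 81.4 and 96.1 in Folr1+/+ embryos. It passed at 0.63 ± 0.17 (adjusted p = 0.0378), while another gave 0.29 ± 0.19 and the brightest -0.12 ± 0.22, so the direction of Shmt1 depends on the probe set. The 3 probe sets of Mthfd1 all had positive fold changes, of 0.35, 0.20 and 0.75, and none passed. Those of Ahcyl1 were all negative, at -0.32, -0.63 and -0.17, again with none past the threshold. The 3 tested probe sets of Shmt2 lay between -0.20 and -0.07 and both of Mthfd2 between -0.16 and -0.02. For Odc1 they gave 0.01, -0.30 and 0.11. Gldc and Gcsh had 1 probe set each, so no such comparison exists for them.

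**Figure D4:**
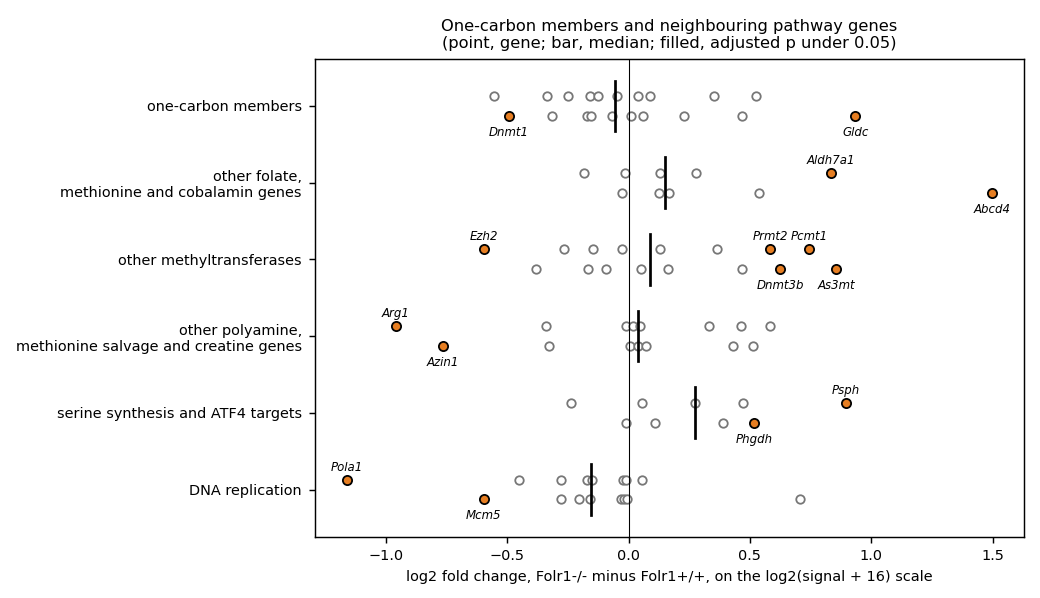
Log2 fold change of each tested one-carbon member and of each tested gene of 5 neighbouring lists, with the median as a bar. Filled and named points passed the adjusted threshold, among them Abcd4 at 1.498, Arg1 at -0.96 and Pola1 at -1.16.

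Neighbouring genes of the pathway were read from the same fit. Of 10 other tested genes of folate, methionine and cobalamin handling, 2 rose (20%, beside 15.0% of all genes called), 0 fell and 8 did not pass (median 0.15). Abcd4, which takes part in the release of cobalamin from lysosomes, had 114 and 64.9 in Folr1-/- embryos, against 19.3, 17.6 and 24.2 in Folr1+/+ embryos (1.498 ± 0.24, adjusted p = 0.0014). Its size depended on the offset, from 0.84 with 64 to 2.04 with 1, and it passed in the 15 other settings that tested it. Under the stricter filter, the mean of probe sets and the rule that leaves out suffixed probe sets it was too dim for a test, so the call rests on 1 suffixed probe set. The Folr1+/+ mean log2 signal of Abcd4, 5.18, lay under the lowest mean tested, 5.524. It thus entered the test only through its Folr1-/- arrays, with a mean of 6.68. Aldh7a1, an aldehyde dehydrogenase that can oxidise betaine aldehyde, had 843 and 760 against 543, 363 and 437 (0.83 ± 0.18, adjusted p = 0.0085). Its call was lost when Folr1-/- replicate 1 was left out (0.76, adjusted p = 0.0996) and with the mean of its probe sets (0.29, adjusted p = 0.242).

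Of 16 other tested methyltransferases, 4 rose, 1 fell and 11 did not pass, which makes 31.2% called beside 15.0% of all genes. Dnmt3b, which sets new DNA methylation, rose, with 621 and 831 in Folr1-/- embryos, against 518, 422 and 446 in Folr1+/+ embryos (0.62 ± 0.17, adjusted p = 0.0286). Its direction was thus opposite to that of the called Dnmt1 probe set, and Dnmt3a gave 0.13 ± 0.18. The call of Dnmt3b was lost in 6 of 18 other settings, and the second Dnmt1 probe set gave -0.08. As3mt, the arsenic methyltransferase, and Pcmt1, a repair methyltransferase for aged proteins, had fold changes of 0.86 ± 0.18 and 0.74 ± 0.17. Prmt2, named after its value was seen, had 0.58 ± 0.16 (limma adjusted p = 0.0282) from a probe set of the class marked x. With suffixed probe sets left out it had 0.36 (adjusted p = 0.271). The call of Prmt2 was lost in 7 of 18 other settings. Ezh2, the histone methyltransferase of Polycomb, fell, with 1073 and 1170 against 1870, 1573 and 1677 (-0.60 ± 0.14, adjusted p = 0.0156). The 5 calls came down to 1 (Dnmt3b) when Folr1-/- replicate 1 was left out, 3 for Folr1-/- replicate 2, 4 for Folr1+/+ replicate 1, 3 for Folr1+/+ replicate 2 and 2 for Folr1+/+ replicate 3. With no filter 3 passed and with the mean of probe sets 2, where the fold changes of Dnmt3b and Pcmt1 were 0.34 and 0.15.

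Of 15 other tested genes of polyamine, methionine salvage and creatine metabolism, 2 fell (13.3% called, beside 15.0% of all genes) and 13 did not pass (median 0.04). Arg1, the arginase that makes ornithine, had 128 and 118 in Folr1-/- embryos, against 267, 232 and 264 in Folr1+/+ embryos (-0.96 ± 0.16, adjusted p = 0.0022). Azin1, which shields ornithine decarboxylase from its antizyme, had 539 and 554 against 1098, 1022 and 739 (-0.76 ± 0.18, adjusted p = 0.0135). Azin1 did not pass when either Folr1-/- array was left out (-0.75, adjusted p = 0.108 for replicate 1, and -0.78, adjusted p = 0.0667 for replicate 2), while Arg1 passed under all 18 other settings. The RNA signal of Odc1 itself did not pass, and its protein was not measured.

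Serine synthesis, which supplies carbons to folate, and other targets of the stress factor ATF4 gave 2 genes of 9 that rose (22.2% called, beside 15.0% of all genes) and 7 that did not pass. Psph, the phosphatase of the last step to serine, had 152 and 122 in Folr1-/- embryos, against 88.8, 37.5 and 81.5 in Folr1+/+ embryos (0.89 ± 0.27, adjusted p = 0.0440). Phgdh, the first enzyme of that route, had 0.52 ± 0.15 (adjusted p = 0.0400). Psat1, the aminotransferase between these steps, had 674 and 635 in Folr1-/- embryos and 653, 665 and 662 in Folr1+/+ embryos, with overlapping groups (-0.01 ± 0.14, adjusted p = 0.963), and is named here after its value was seen. Neither call survived the omission of either Folr1-/- array, of Folr1+/+ replicate 2 or of Folr1+/+ replicate 3, where Psph ran from 0.59 to 1.04 and Phgdh from 0.43 to 0.56. Both were also lost with no filter, with no intensity trend and with the mean of probe sets. Psph was lost as well with an offset of 1, with quantile normalization and with suffixed probe sets left out, in all 10 of 17 settings.

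Among 16 DNA replication genes, in whose phase of the cell cycle Dnmt1 acts, 2 fell (12.5% called, beside 15.0% of all genes) and 14 did not pass (median -0.16). Pola1, the X-linked catalytic subunit of DNA polymerase alpha, had 88.4 and 84.8 in Folr1-/- embryos, against 266, 213 and 171 in Folr1+/+ embryos. Its fold change was -1.16 ± 0.20 (limma adjusted p = 0.0022), and the part of sex in this value was not tested. Mcm5, a subunit of the replicative helicase, had a fold change of -0.60 ± 0.16, and it did not pass when Folr1-/- replicate 2 (-0.37), Folr1+/+ replicate 1 (-0.60) or Folr1+/+ replicate 3 (-0.61) was left out. It was also lost with no filter (adjusted p = 0.0615), with each array centred on its median (0.0502) and with no intensity trend (0.0507). Uhrf1, which brings Dnmt1 to newly copied DNA, did not pass and had -0.20 ± 0.16.

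**Figure D5:**
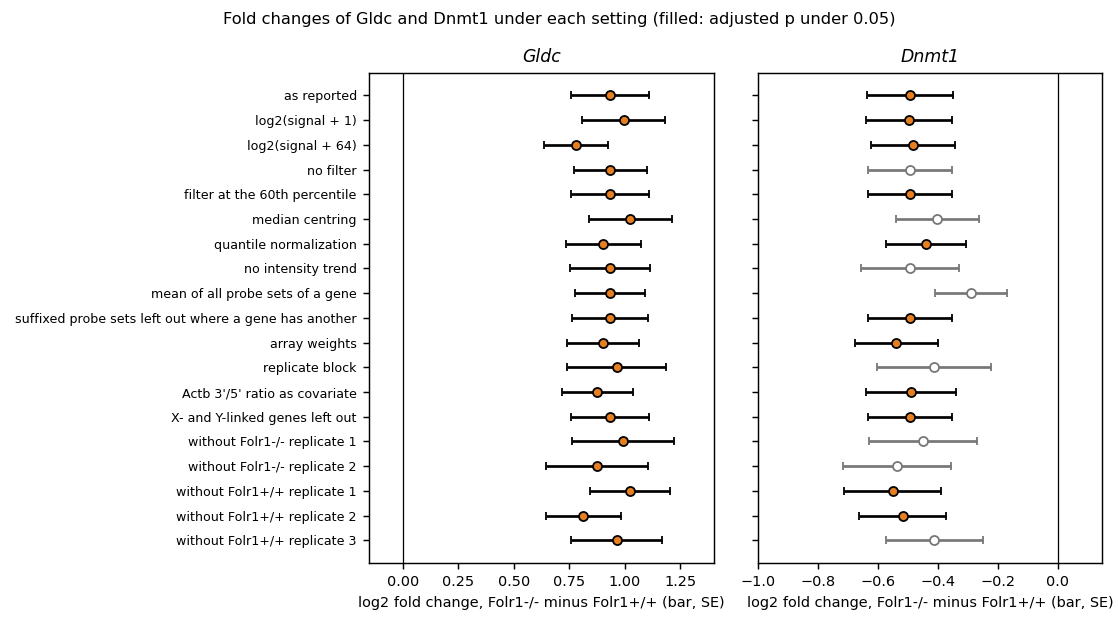
Log2 fold change and SE of Gldc and Dnmt1 as reported and under 18 other settings, with filled points where the adjusted p was under 0.05. Gldc stays filled throughout, between 0.78 and 1.025, and Dnmt1 is open in 8 settings.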

How the data were processed

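Per the submitters' processing notes, the deposited intensities are MAS5 signals, 1 linear value per probe set and array. The sources used here do not give the version. Each deposited array has a trimmed mean of 149.98 after 2% is trimmed at both ends, and this scaling was kept. The ratio of 3′ to 5′ signal ran from 21.1 to 39.5 for Actb and from 67.2 to 104 for Gapdh. Both ratios were lowest on Folr1+/+ replicate 1 and highest on Folr1+/+ replicate 2. Signals from 5′ ends of these transcripts were thus weak and uneven between arrays. The Actb ratio served as the RNA quality covariate below. Of 22690 probe sets, 64 were controls, 20380 had 1 symbol in the platform annotation, 691 several and 1555 none listed.

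Tests were run on log2(signal + 16), computed from the deposited signals, a scale that understates changes of dim genes. The model was limma (version 3.58.1, R 4.3.3) with a trended prior. The dimmest 40% of genes by mean log2 signal were not tested, and p-values were adjusted by Benjamini-Hochberg over the other 7436 with a threshold of 0.05. Labels call the arrays biological replicates, and 5 arrays leave 3 residual degrees of freedom per gene, which limits the precision. The text names all members and, per neighbouring list, the up to 4 genes past the threshold with the largest change, apart from Prmt2, Dnmt3a, Uhrf1 and Psat1, which were added after their values were seen. Members and lists were chosen with earlier results of these data known, so their counts are descriptions. Alternatives were other offsets, filters, scalings, probe set rules, priors, array weights, an RNA quality covariate, omission of sex-linked genes, a replicate block and leaving out each array. Fits of single probe sets and of the neighbouring lists under these settings were chosen after seeing the data. The code was tested on simulated data.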

Additional observations from a re-analysis of the deposited data

How the results depend on the processing

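Of the 18 other settings, Gldc passed in 18 and Dnmt1 in 10. Dnmt1 was lost with no filter (adjusted p = 0.0826), median centring (0.0759), no intensity trend (0.0746), the mean of probe sets (0.148) and on 3 omissions of an array. The number of members past the threshold was 1 with no filter and 1 with the replicate block, each time Gldc, and 1 to 2 when single arrays were left out. With single arrays left out, the count over all genes ran from 369 (without Folr1-/- replicate 1) to 1007, with 664 without Folr1-/- replicate 2 and 636 without Folr1+/+ replicate 3, beside 1114 over all arrays. Fewer arrays enter these fits. The other settings gave 747 (no filter) to 1376 (array weights). The groups share only 2 replicate numbers, and the labels do not say whether these pair the samples. Deviations from the group mean correlated at 0.0189 and -0.0558 across groups. The 2 Folr1-/- deviations are mirror images of each other, so these values cannot decide the pairing. The replicate block gave 899 genes and -0.41 for Dnmt1 (limma adjusted p = 0.175). Folr1+/+ replicate 3 is alone in its block, so fold changes under the block equal those without that array. Signs turned only for members that did not pass, and the cause was not tested. The mean of probe sets gave 0.14 for Shmt1 and -0.059 for Odc1, and single probe sets 0.29 and 0.63 for Shmt1 and -0.30 for Odc1. Median centring gave 0.024 for Shmt2 and 0.044 for Mat2b. The replicate block gave -0.015 for Dld, -0.027 for Ahcy and -0.053 for Odc1, and the Actb 3′ to 5′ ratio as covariate -0.0038 for Odc1. With single arrays left out, Shmt1 ran from -0.33 to 0.090, Shmt2 from -0.35 to 0.21, Dld from -0.015 to 0.22, Mmachc from -0.11 to 0.19, Mat2b from -0.11 to 0.018, Ahcy from -0.027 to 0.18 and Odc1 from -0.053 to 0.056. A dim gene near the offset cannot show a large fold change.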
